A study of Mus musculus with 2 samples.

Results

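The genes described here make and load MHC class I molecules, or encode class Ib and class I-like molecules, and were measured in Vγ6 γδ T cells from the thymus of newborn mice. They were chosen by name as the rows of the expression table whose platform gene symbol is H2-K1, H2-D1, H2-L or H2-Bl, or begins with H2-Q, H2-T or H2-M, with 17 named genes of the light chain, peptide supply, loading, regulation and class I-like molecules added. This gave 49 of the 65956 rows, of which 38 name 1 gene symbol and 11 name several. A row is a transcript cluster, the set of probes that an array summarises into 1 value. H2-L was not analysed here as a row of its own.

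Vγ6 γδ T cells carry a γδ T cell receptor built with the Vγ6 chain, develop in the thymus around birth and are known for making interleukin 17. The cells were stained with antibodies and sorted from thymi of C57BL/6 mice 0 days old. Of the 2 arrays, 1 held RNA of WT mice and the other, called the knockout array from here on, RNA of MHC class II KO mice, which lack the molecules that show peptides to CD4 T cells. The study asked how transcripts of these cells differ when MHC class II is missing. Not given in the labels are the disrupted class II gene, the strain from which the altered chromosome came, and any pooling of animals. Whether MHC sequence around the altered gene comes from another strain is therefore not known, and its part in the values of H2 rows was not tested. With 1 array per genotype no difference here has an error, a test or a replicate check, and each one describes these 2 arrays.

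Classical class I molecules, H2-K and H2-D in these mice, pair a variable heavy chain with β2-microglobulin and show peptides from the inside of a cell to CD8 T cells. The peptides are cut by the proteasome, pumped into the endoplasmic reticulum by the TAP transporter, trimmed there, and fitted by a loading complex. Class Ib molecules share the fold, vary less between individuals and often have special ligands or receptors. Those of the H2-T region called T10 and T22 carry no peptide and are bound directly by the receptors of some γδ T cells.

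Signal was taken as the log2 of the deposited intensity, and every difference is knockout minus WT on that scale. Background was the level under which 95% of 1228 olfactory receptor rows lay, a log2 signal of 5.94 for the WT array and 5.86 for the knockout array. Where a row passed background on a single array its fold is a lower bound, the brighter signal against the other array's background, and counts at a fold threshold use that bound. All 13 measured markers of Vγ6 γδ T cells, among them Tcrg-V6, Cd3e and Sox13, were above background on both arrays. Cd3 chain genes in the list are shared by other T cells, so they do not mark Vγ6 cells alone. The median difference of these 13 was 0.01, with 7 above 0 and 6 below. Tcrg-V6 differed by -0.31, and Zbtb16 stood highest at 0.47. The 1 marker at least 1.5-fold apart was the cytokine gene Il17a, lower in the knockout with a difference of -1.57 (beside 2.66% of all genes above background). The class II gene H2-Ab1 went from a log2 signal of 7.68 in WT to 6.67 in the knockout, a difference of -1.01, and stayed above background. Whether its probes lie in the deleted part is not known.

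Of the 49 rows, 36 were above background on at least 1 array, 33 of them on both and 3 on the knockout array alone. All 36 had a measured difference above 0, with Psme1 turning below 0 under 2 other scalings, beside 56.2% of the 16009 rows with a gene symbol above background. Passing on the knockout array alone left 3 of the rows almost no room to be lower there, and the median of the other 33 was 0.32. At least 1.5-fold higher on the knockout array were 7 of the 36, beside 3.97% of all such rows, and none were at least 1.5-fold lower, beside 2.81%. At least 2-fold higher were 3 of the 36, beside 0.825%, and none were 2-fold lower, beside 0.793%. The median difference of the 36 was 0.33, against 0.04 over the 16009 rows, whose robust SD was 0.25. The 7 rows were H2-T3 and H2-T18, H2-T10, H2-T22 and H2-T9, Gm7030 and H2-T9, H2-T24, H2-Q7 and H2-Q9, and H2-Q5 and H2-Q7, in which "and" joins symbols named by the same row. Of them 5 belong to the T region and 2 to the Q region of the MHC.

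The count rests in part on rows that cannot be given to a single gene. Among the 25 rows with 1 symbol above background, 2 were at least 1.5-fold higher, H2-T10 and, by its bound on the knockout array alone, H2-T24, beside 3.84% of all rows with 1 symbol. Among the 33 rows above background on both arrays it was 4, those of H2-T10, H2-T22 and H2-T9, H2-Q7 and H2-Q9, and H2-Q5 and H2-Q7, beside 4.0% of all rows so filtered. Near the threshold, H2-T24 lay just over it with a bound of 0.66, and the row naming Psme2b, Psme2 and Psme2b-ps lay just under it at 0.55. Genes of the Q and T regions are close copies of each other, so a probe designed for one can read another. Probe sequences were not used here, so whether probes for H2-K1 and H2-D1 read other class I genes is not known either. The row of H2-D1 also carries another gene identifier, for which RefSeq gave no current symbol.

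**Figure D1:**
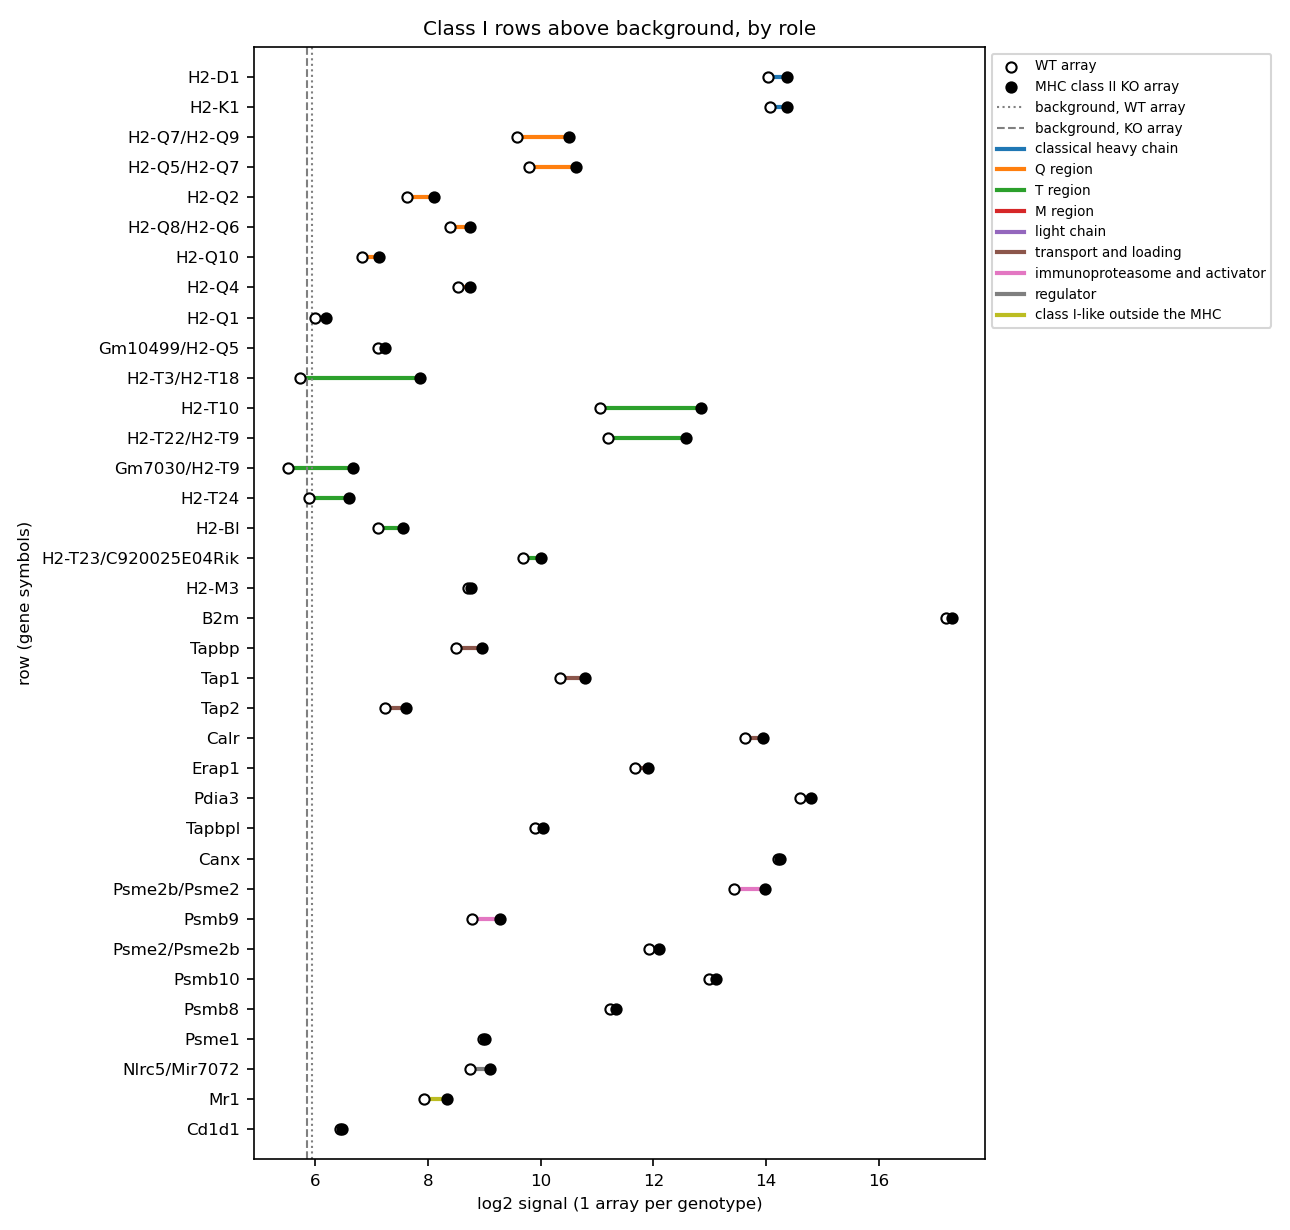
Log2 signal of each of the 36 class I rows above background, with an open point for the WT array and a filled point for the knockout array (1 array each), joined by a line coloured by role. Dotted and dashed lines mark the background of the WT array (5.94) and of the knockout array (5.86), and the filled point lies to the right in all 36 rows (Psme1 turns under 2 other scalings), with the longest lines in the T region.

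The T region held the widest gaps. H2-T10, with log2 signals of 11.06 in WT and 12.85 in the knockout, was higher by 1.79, a 3.45-fold difference. RefSeq lists H2-T10 in its C57BL/6J assembly as a transcribed pseudogene. The row naming H2-T22 and H2-T9 went from 11.20 to 12.57, a difference of 1.37 or 2.59-fold. T22, like T10, is a ligand of some γδ T cell receptors, so both rows that name these ligands were well above background on each array and higher on the knockout array.

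The row naming H2-T3 and H2-T18 was not above background in WT, at a log2 signal of 5.73, and reached 7.86 in the knockout. That is a difference of 3.78-fold or more. H2-T3 encodes the thymus leukaemia antigen, a class Ib molecule that binds CD8αα. It is known from gut epithelium and, in some mouse strains only, from thymocytes. The row naming Gm7030 and H2-T9 went from 5.51 to 6.67 and H2-T24 from 5.88 to 6.60, both passing background on the knockout array only. Their folds are at least 1.66 and at least 1.58. Of the 16009 rows with a gene symbol above background, 7 had a bounded difference as high as that of H2-T3 and H2-T18 or higher, and 11 as high as that of H2-T10, each count including the row itself.

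The other rows of the T region differed less. H2-Bl, listed by RefSeq as a transcribed pseudogene, went from a log2 signal of 7.11 to 7.57, a difference of 0.45. The row naming H2-T23 and C920025E04Rik went from 9.69 to 10.01, a difference of 0.32. H2-T23 encodes Qa-1, a molecule that shows leader peptides of other class I chains to CD94/NKG2 receptors. Over the 4 rows of the region above background on both arrays the median difference was 0.91, and it was 0.73 over all 7 with bounds in place of differences for the other 3. The 29 rows above background outside the region, each on both arrays, had a median of 0.30. At least 1.5-fold higher were 2 of the 29, beside 4.0% of all rows above background on both arrays. This split was made after the values were seen.

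The classical heavy chains differed little in comparison. H2-K1 went from a log2 signal of 14.06 in WT to 14.36 in the knockout, and H2-D1 from 14.02 to 14.37. Their differences of 0.30 and 0.35 correspond to 1.23-fold and 1.27-fold. Both are larger than the robust SD of all rows, which is a spread over different rows and not an error of either. Neither difference has a replicate behind it.

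In the Q region 8 of 9 rows were above background, each on both arrays. The row naming H2-Q7 and H2-Q9, which encode Qa-2, a class Ib molecule with a lipid anchor, went from a log2 signal of 9.57 to 10.50, a 1.90-fold difference. The row naming H2-Q5 and H2-Q7 went from 9.79 to 10.63, which is 1.80-fold. A second row that names H2-Q5, together with Gm10499, differed by only 0.13, so rows that share this symbol disagree. H2-Q2 went from 7.62 to 8.11, and its difference of 0.49 stayed under 1.5-fold. The row naming H2-Q8 and H2-Q6 differed by 0.34, H2-Q10 by 0.31, H2-Q4 by 0.21 and H2-Q1 by 0.18. H2-Q10 is known as a secreted class I molecule of the liver. H2-Q3 was below background on both arrays.

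Most of the M region was below background. Of 13 rows, H2-M3 was the only one above background, with log2 signals of 8.72 in WT and 8.77 in the knockout. H2-M3 shows peptides that begin with formylmethionine, as bacteria make them, and its difference was 0.06. The other rows, for H2-M1, H2-M2, H2-M5, H2-M6-ps, H2-M9, H2-M11 and the 6 genes from H2-M10.1 to H2-M10.6, were below background on both arrays. The H2-M10 genes are known from sensory neurons of the vomeronasal organ.

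**Figure D2:**
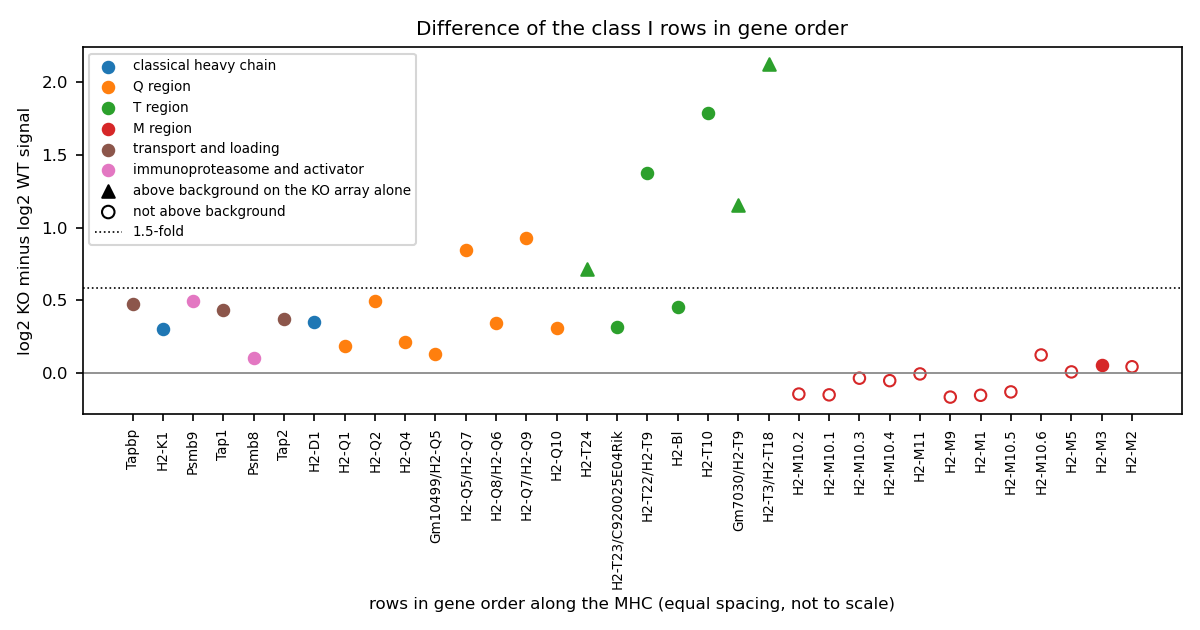
Difference in log2 signal (knockout minus WT) of the 34 class I rows that could be placed in gene order along the MHC by the RefSeq gene table, equally spaced. Filled circles are above background on both arrays, triangles on the knockout array alone (their measured difference is drawn), open circles on neither. From Tapbp to H2-Q10 most rows lie between 0.10 and 0.49, H2-T10 (1.79) and the row of H2-T3 and H2-T18 (2.13) stand highest, and the M region lies near 0.

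In gene order, rows with wide and with small differences stood side by side in the Q and T regions. RefSeq's gene table for GRCm38.p6 ordered 34 of the rows along the MHC. The row of H2-Q8 and H2-Q6 (0.34) lay between those of H2-Q5 and H2-Q7 (0.85) and of H2-Q7 and H2-Q9 (0.93). The stretch from H2-T22 to H2-T3, picked after the values were seen, held the 3 rows that were at least 2-fold higher. H2-Bl (0.45) and the row of Gm7030 and H2-T9 lay among them. The next gene in order with a row, H2-M10.2, was below background. The H2-K end, from Tapbp to Tap2, held differences from 0.10 to 0.49.

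Promoter sequences are shown for the genes whose rows differed most and for the classical genes they are compared with. RefSeq's GRCm38.p6 promoter table, which gives 250 bases before to 50 after a start of each gene, held 35 of the 50 symbols of these rows, and the first start listed was used. It had no entry for H2-T10, so H2-T22 stands for that pair of ligands. Capitals mark 5 motifs, searched on both strands: CCAAT, the box bound by NF-Y, TGACG, the core of a cyclic AMP response element, GGGATTCCC, the κB element of the class I enhancer A, GAAGTGAAA, the interferon consensus of class I genes, and GAAANNGAA, an interferon response core. No matches of different motifs overlap in the windows shown. The windows are, in turn, chr17:36190102-36190401 on the minus strand for H2-T3, chr17:36042693-36042992 minus for H2-T22, chr17:35438905-35439204 plus for H2-Q7, chr17:34000298-34000597 minus for H2-K1 and chr17:35262844-35263143 plus for H2-D1.
H2-T3: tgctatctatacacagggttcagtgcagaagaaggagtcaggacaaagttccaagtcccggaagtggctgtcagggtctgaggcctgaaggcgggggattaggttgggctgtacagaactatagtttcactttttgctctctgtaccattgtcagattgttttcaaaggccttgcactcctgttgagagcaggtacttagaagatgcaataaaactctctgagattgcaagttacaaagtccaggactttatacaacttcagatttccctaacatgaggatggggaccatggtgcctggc
H2-T22: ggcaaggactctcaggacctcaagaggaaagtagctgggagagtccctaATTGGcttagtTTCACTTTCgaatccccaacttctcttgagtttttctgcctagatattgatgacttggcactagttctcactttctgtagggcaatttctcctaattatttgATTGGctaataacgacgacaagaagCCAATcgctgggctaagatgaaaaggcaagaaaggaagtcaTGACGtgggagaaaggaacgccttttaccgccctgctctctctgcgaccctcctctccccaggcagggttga
H2-Q7: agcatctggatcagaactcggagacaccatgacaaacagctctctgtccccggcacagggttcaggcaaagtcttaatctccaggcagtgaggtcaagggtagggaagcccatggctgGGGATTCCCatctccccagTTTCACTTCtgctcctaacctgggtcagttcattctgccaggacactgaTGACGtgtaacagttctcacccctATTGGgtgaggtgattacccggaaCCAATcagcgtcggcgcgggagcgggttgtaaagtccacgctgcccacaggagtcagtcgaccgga
H2-K1: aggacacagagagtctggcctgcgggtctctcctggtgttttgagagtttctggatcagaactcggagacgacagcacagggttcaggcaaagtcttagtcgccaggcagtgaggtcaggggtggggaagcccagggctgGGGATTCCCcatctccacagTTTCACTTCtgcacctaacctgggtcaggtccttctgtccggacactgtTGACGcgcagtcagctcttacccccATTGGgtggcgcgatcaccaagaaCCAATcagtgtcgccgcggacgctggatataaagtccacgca
H2-D1: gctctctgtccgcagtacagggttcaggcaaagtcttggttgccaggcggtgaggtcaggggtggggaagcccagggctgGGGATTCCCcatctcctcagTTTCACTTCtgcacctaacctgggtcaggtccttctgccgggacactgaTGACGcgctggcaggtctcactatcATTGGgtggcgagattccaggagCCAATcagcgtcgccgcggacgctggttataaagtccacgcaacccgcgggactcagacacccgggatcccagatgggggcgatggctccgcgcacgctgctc

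The windows of H2-K1, H2-D1 and H2-Q7 carry the κB element, then the interferon consensus, then TGACG and a pair of CCAAT boxes, in the same order. In H2-K1 these begin at bases 141, 161, 210, 235 and 259, counted from 1 at the 5′ end. The H2-K1 window is identical to that of H2-Q7 at 87.4% of aligned bases and to that of H2-D1 at 89.5%. The H2-T22 window is identical to those of H2-K1, H2-Q7 and H2-D1 at 54.8%, 55.4% and 62.9%, and the H2-T3 window at 59.5%, 64.7% and 65.0%. Identity between unrelated windows was not computed. The H2-T22 window holds GAAANNGAA on the reverse strand at base 61, TGACG at base 229 and CCAAT boxes at bases 50, 163 and 188. None of the 5 motifs is written in full in the H2-T3 window. Only exact matches were marked. Both the H2-T22 and the H2-T3 window read TTTCACTTT, which is 1 letter from the interferon consensus on the reverse strand. The windows of H2-T3 and H2-T22 are 59.8% identical to each other.

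Among the 35 member promoters, 4 hold the κB element, those of H2-K1, H2-D1, H2-Q7 and H2-Q6, against 0.370% of 27025 promoters in the table. The interferon consensus is in 7, which are these 4 with H2-Q10, H2-Q4 and H2-M3, against 0.522% of all promoters. GAAANNGAA is in 5, those of H2-T22, H2-T23, B2m, Erap1 and Psme1, against 8.57%. TGACG is in 17 of 35 (21.0% of all promoters) and CCAAT in 26 of 35 (37.9%). Each of the first 3 motifs is absent from the 11 windows of M region genes below background. At the shares over all promoters, few or no matches would be looked for in 11 windows, so this absence tells nothing about those genes. A match of letters is a description and not a bound site, and gene families share sequence by descent. The κB element and the interferon consensus were searched for as known sequences of class I promoters. Their counts in such promoters are therefore no test.

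**Figure D3:**
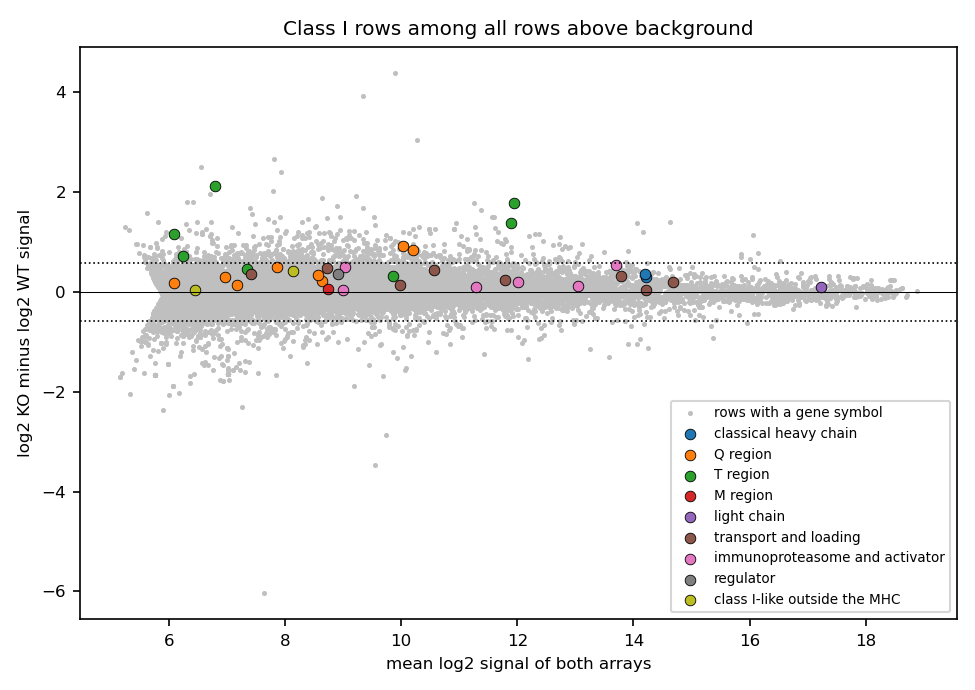
Difference in log2 signal (knockout minus WT) against the mean log2 signal of both arrays, for the 16009 rows with a gene symbol above background (grey) and the 36 class I rows (coloured by role). Dotted lines mark 1.5-fold, and the class I rows lie above 0 (Psme1 turns under 2 other scalings), with H2-T10 (1.79) and the row of H2-T22 and H2-T9 (1.37) at the upper edge of the cloud at their signal.

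The light chain gene B2m, whose product pairs with the heavy chains, gave log2 signals of 17.18 in WT and 17.29 in the knockout, a difference of 0.11. Its deposited intensity lies above 65535, the ceiling of a 16-bit scanner, so a later step not described in the sources set its value and may have changed its fold. The other 35 rows above background lie under that ceiling. In the gene lists above and below, Cd3e, Cd3d, Cd3g and Il23r of the Vγ6 markers lie above it on at least 1 array. So do Psma6 and Psmb1 of the standard proteasome, Mki67 of dividing cells, and Hsp90b1. Their folds have the same limit, and the medians of their lists include them.

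Genes of peptide transport and loading were all above background on both arrays, with 8 differences from 0.05 to 0.47 and a median of 0.28. Tapbp, which encodes tapasin, the bridge between the TAP transporter and empty class I molecules, went from a log2 signal of 8.49 to 8.96. Tap1 and Tap2, which together form the transporter, went from 10.35 to 10.78 and from 7.24 to 7.61, differences of 0.43 and 0.37. Tapbpl, a peptide editor related to tapasin, differed by 0.14. Erap1, which trims peptides in the endoplasmic reticulum, differed by 0.23. Of the general chaperones that help class I molecules fold or load, Calr differed by 0.32, Pdia3 by 0.19 and Canx by 0.05. None of the 8 reached 1.5-fold.

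The immunoproteasome replaces the catalytic subunits of the standard proteasome and changes which peptides are cut. Psmb9 went from a log2 signal of 8.79 to 9.28, a difference of 0.49, while Psmb10 differed by 0.11 and Psmb8 by 0.10. Psmb6 and Psmb7, the standard subunits that Psmb9 and Psmb10 replace, differed by -0.07 and -0.10. The proteasome activator is built of the products of Psme1 and Psme2. Psme1 differed by 0.03, which turned to -0.02 after quantile normalization and -0.01 after a loess correction. Of 2 rows naming Psme2 and its copy Psme2b, one went from 13.43 to 13.97 and the other from 11.92 to 12.11, so the rows disagree in size (0.55 and 0.19). In this and the following lists each gene has 1 row, and of the 14495 genes above background 56.4% had a difference above 0, with 3.74% past 1.5-fold upward and 2.66% past it downward. Over the 16 genes of the standard proteasome and its other activators above background, none was 1.5-fold apart and the median was 0.05.

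Nlrc5 encodes the transactivator of class I genes, and its row, which also names a microRNA inside it, went from a log2 signal of 8.74 to 9.10, a difference of 0.35. Among 21 genes above background for the factors it works with and for interferon receptor signalling, 17 differed by more than 0 (beside 56.4%), with 2 past 1.5-fold upward (beside 3.74%) and none downward (beside 2.66%), and the median was 0.20. Those 2 were Irf8, a transcription factor of myeloid and lymphoid cells, at 1.11, and Stat2, a signal carrier of type I interferon, at 0.61. Ifnar2 differed by 0.47 and Ifngr2, a chain of the interferon gamma receptor, by -0.50. Rfx5, which binds class I and class II promoters, differed by -0.11 and Irf1, an interferon-induced activator of class I genes, by -0.07, or 0.02 as the mean of its 2 rows. Of 21 interferon-induced genes above background, 16 differed by more than 0 (beside 56.4%) and the median was 0.32. Past 1.5-fold were 3 upward, Gbp4 at 0.96, Gbp7 at 0.74 and Igtp at 0.69 (beside 3.74%), and none downward (beside 2.66%). Rtp4 stood lowest at -0.43.

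Mr1 and Cd1d1 lie outside the MHC. Mr1, which shows vitamin B metabolites to MAIT cells, went from a log2 signal of 7.92 to 8.34, a difference of 0.41. Cd1d1, which shows lipids to NKT cells, went from 6.44 to 6.48. Of 9 other class I-like genes with a row, Ulbp1, a ligand of the receptor NKG2D, at 0.19 and Cd1d2 at 0.18 were the ones above background.

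The general folding machinery of the endoplasmic reticulum, which serves class I molecules and other proteins, had a median near that of the class I rows. Of 17 genes above background, 15 differed by more than 0 (beside 56.4%), with a median of 0.32. Past 1.5-fold upward were 2 (beside 3.74%), the chaperone genes Hspa5 (0.68) and Hsp90b1 (0.61). Hsp90b1, like B2m, lies above the ceiling of a 16-bit scanner, so its fold has the same limit. Ganab, a glucosidase gene, differed by 0.57 and Syvn1, a ubiquitin ligase gene, by 0.53. Of 7 peptidases that trim or destroy peptides, Ide (0.64) was at least 1.5-fold higher, Lap3 differed by 0.39, Blmh by -0.28 and Tpp2 by -0.24 (median 0.13).

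A list of receptors of class I or class I-like molecules, with some related or partner genes, had 13 measured genes, and 6 were above background. Cd8b1 and Cd8a, the chains of the CD8 co-receptor, differed by 1.38 and 0.74. Klrd1, which encodes CD94, differed by -0.47. Lilrb4, an inhibitory receptor gene named Lilrb4a on the platform, differed by -0.51, and that it binds class I is not claimed here. Hcst, which encodes a signalling adaptor and not a receptor of class I, differed by 0.12. Klrk1, which encodes NKG2D, was below background on both arrays.

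**Figure D4:**
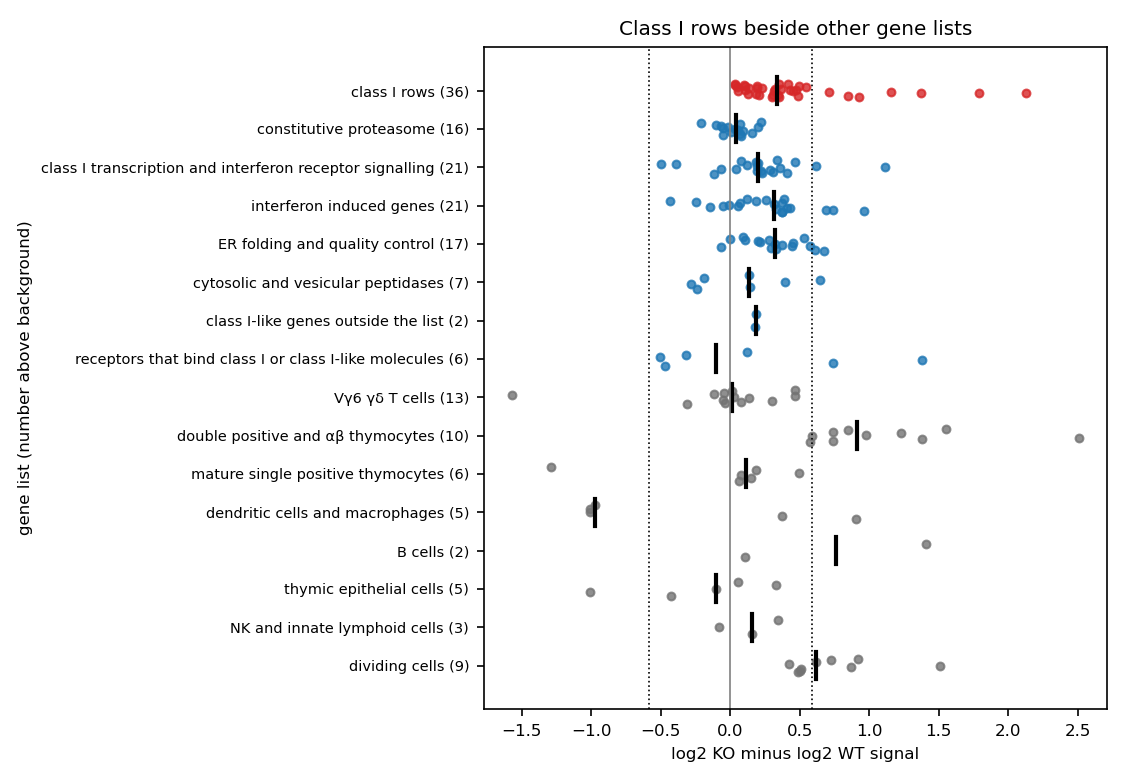
Difference in log2 signal (knockout minus WT) of the class I rows (red), of genes in 7 pathway lists (blue) and of markers in 8 lists (grey), for genes above background on at least 1 array. Black bars are medians, dotted lines mark 1.5-fold, and the class I rows (median 0.33) lie between the standard proteasome (0.05) and the markers of double positive and αβ thymocytes (0.91).

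Lists for other cell types and for dividing cells were read on the same arrays. Their genes need not be silent in Vγ6 cells, so a signal does not mark other cells alone. Of the double positive and αβ thymocyte list 10 markers were above background, 8 on both arrays and all 8 higher in the knockout. Dntt and Ptcra passed on the knockout array alone, which left them almost no room to be lower there. Of the 10, 8 were at least 1.5-fold higher, Cd8b1, Cd8a and Dntt included (beside 3.74% of all genes). The log2 of the list's summed signal was 13.75 in WT and 15.03 in the knockout, of which Cd8b1 made up 77.4% and 82.6%, and without it the values were 11.60 and 12.51. Rag2 was below background on both arrays. Of 9 genes of dividing cells all were higher and 5 at least 1.5-fold (median 0.61), beside 56.4% and 3.74% of all genes. The part of these cells in the class I differences was not tested, and in a sorted bulk sample fewer cells of a type and less RNA per cell cannot be told apart. Of 14 markers of dendritic cells and macrophages 5 were above background, and Itgax, Csf1r and Flt3 were not. Cd68 differed by 0.91, Lyz2 passed on the knockout array alone (at least 1.23-fold), and the other 3 were the class II genes H2-Ab1 (-1.01), H2-Eb1 (-0.97) and H2-Aa, which passed on the WT array alone. Of 12 thymic epithelial markers 5 were above background, with Foxn1 and Psmb11, the subunit gene of the thymic proteasome, below it on both arrays. Of 7 B cell markers the ones above background were Ighm (1.41) and Cd79b (0.11). Of 7 NK and innate lymphoid markers 3 were above background (median 0.16), and of 6 markers of mature thymocytes, all above background, the median was 0.11, with Il7r at 0.50 and Ccr9, a chemokine receptor gene, at -1.29.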

How the data were processed

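Total RNA of sorted cells was amplified and labelled for whole-transcript GeneChip arrays, per the labels' protocols. The submitters' processing notes name RMA and Affymetrix Expression Console 1.4.1, without settings or a genome build. The authors deposited linear intensities, 1 per row and array, that span 6.45 to 480711 for WT and 6.71 to 487523 for MHC class II KO. The number of arrays limits the precision.

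Symbols came from the platform's annotation. Of 65956 rows, 30604 had 1 symbol, 2146 several and 33206 none. Counts of class I genes are over rows, beside rows with at least 1 symbol. In other lists the brightest row with a gene's symbol alone was used, and genes with no such row were not analysed here. The genes of interest, lists and naming rule were chosen with earlier results of these data known. Every class I row above background is named, as are up to 4 genes of each pathway list with the widest differences and a fixed set of genes whatever their values, of which Psmb5 had no row of its own and another is not reported here. Promoters were aligned globally with Biopython 1.88, and the motifs were chosen after the data were seen. The count at 1.5-fold was tried on simulated data with large shifts in bright rows. Bounds near background, gene lists and promoter steps were not tried in that way. Alternatives were other scalings (centring, quantile normalization, loess with fraction 0.3), background filters, units of counting and a 2-fold threshold.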

Additional observations from a re-analysis of the deposited data

How the results depend on the processing

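No paired analysis was possible because each genotype has 1 array. The count of class I rows at least 1.5-fold higher was 7 under each other scaling, with no background filter, with values raised to background and with identical rows counted once, and 5 with background at the 99th percentile of olfactory receptor rows. It was 4 over rows above background on both arrays, 2 without rows naming several symbols, 2 with 1 row per gene and 3 at 2-fold, and fewer rows entered or could pass in each of these. None were 1.5-fold lower under the alternatives run. The median of 0.33 ran from 0.30 to 0.33 under the alternatives that keep a background filter and was 0.19 with no filter, which lets in 13 rows below background. Of 36 class I differences, 36 were above 0 after centring, 35 after quantile normalization and 35 after the loess correction, the exception being Psme1 (-0.0205 and -0.0105). Irf1 went from -0.07 to 0.0206 as the mean of its rows. With no background filter, which adds dim genes, list medians moved to 0.0727 for other class I-like genes, -0.0528 for dendritic cells and macrophages (from -0.97, the value of the class II gene H2-Eb1, while Cd68 and Lyz2 stood at 0.91 and 0.37), 0.0207 for B cells and -0.0785 for NK and innate lymphoid cells (from 0.16). The other list medians kept their sign and moved by at most 0.1. The bounds of H2-T3 and H2-T18, of Gm7030 and H2-T9 and of H2-T24 depend on where background is set.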
